A study of Mus musculus with 18 samples.

Results

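Chemokine ligands are small secreted or membrane-anchored proteins that direct the movement of leukocytes. They were chosen here by gene symbol: every CC or CXC ligand row with a gene ID (Ccl or Cxcl, a number and at most one letter) together with Cx3cl1, Xcl1 and Pf4. The rule found 39 ligands among 30975 symbols with a gene ID. Levels were read in 18 RNA-seq libraries of male wild-type C57BL/6 mice, 16 weeks old, which had eaten a high-fat diet (HFD) during the last 12 weeks. There were 6 libraries of adipocytes from inguinal white adipose tissue (iWAT), 6 of adipocytes from epididymal white adipose tissue (eWAT) and 6 of whole brown adipose tissue (BAT). All groups shared the genotype, sex and diet, and no transgene or drug was involved. One label field names regular chow for all 18 libraries, against the titles and the protocol, and they were taken as HFD samples. One protocol label gives the substrain as C57BL/6J and the study's supplement as C57BL/6NTac. The numbers in the sample titles were taken as mouse numbers: 1, 2, 3, 4, 5 and 16 gave iWAT and eWAT, and 1, 2, 5, 16, 17 and 18 gave BAT.

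A chemokine binds a G protein-coupled receptor, most of which signal through Gi, on the surface of a leukocyte, and a gradient of the ligand steers that cell. CXC ligands such as Cxcl1 and Cxcl2 act through CXCR2 and draw neutrophils, whereas CC ligands such as Ccl2 act through CCR2 and draw monocytes. In obese adipose tissue, chemokines are best known for the recruitment of macrophages. Atypical chemokine receptors bind ligands without coupling to G proteins and mostly remove them.

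Several ligand genes lie side by side. On mm9, 11 CC ligand genes fall within chr11:81849073-83478942, and Cxcl5, Pf4, Cxcl3, Cxcl15, Cxcl1 and Cxcl2 within chr5:91188325-91334964. The genes of the 3 CXCR3 ligands, Cxcl9, Cxcl10 and Cxcl11, fill chr5:92750357-92794511. RefSeq promoter entries (GRCm38.p6) matched 27 of the 39 ligands. The 180 bases before the start of 6 of them are shown: 3 ligands of neutrophils, 2 ligands of the interferon-induced group, and Cxcl12, the highest ligand of BAT. Capitals mark matches, on either strand, to the NF-kappaB consensus or to GAAANNGAA, the core of the interferon-stimulated response element.
Cxcl1 (chr5:90891065-90891244, plus strand): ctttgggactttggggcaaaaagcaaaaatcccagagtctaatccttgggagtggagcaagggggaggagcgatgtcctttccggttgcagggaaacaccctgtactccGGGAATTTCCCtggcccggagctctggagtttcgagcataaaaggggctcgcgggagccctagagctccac
Cxcl2 (chr5:90903719-90903898, plus strand): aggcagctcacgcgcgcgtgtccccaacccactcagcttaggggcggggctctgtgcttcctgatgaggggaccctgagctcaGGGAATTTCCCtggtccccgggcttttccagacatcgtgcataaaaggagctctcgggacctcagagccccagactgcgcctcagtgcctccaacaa
Cxcl3 (chr5:90785921-90786100, plus strand): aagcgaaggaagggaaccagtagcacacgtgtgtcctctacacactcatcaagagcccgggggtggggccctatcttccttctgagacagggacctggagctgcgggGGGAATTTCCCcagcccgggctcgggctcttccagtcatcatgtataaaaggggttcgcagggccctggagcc
Cxcl10 (chr5:92348890-92349069, minus strand): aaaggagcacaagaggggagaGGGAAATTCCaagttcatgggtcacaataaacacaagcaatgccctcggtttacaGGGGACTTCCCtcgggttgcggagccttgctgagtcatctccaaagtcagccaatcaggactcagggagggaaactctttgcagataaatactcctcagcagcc
Cxcl9 (chr5:92328080-92328259, minus strand): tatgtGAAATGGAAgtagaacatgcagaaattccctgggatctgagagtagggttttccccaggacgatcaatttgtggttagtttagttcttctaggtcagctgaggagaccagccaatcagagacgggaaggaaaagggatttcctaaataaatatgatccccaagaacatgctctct
Cxcl12 (chr6:117168355-117168534, plus strand): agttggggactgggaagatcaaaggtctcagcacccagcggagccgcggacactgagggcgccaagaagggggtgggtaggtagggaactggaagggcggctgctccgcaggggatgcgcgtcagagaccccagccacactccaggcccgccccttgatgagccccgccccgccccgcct

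The windows of Cxcl1, Cxcl2 and Cxcl3 all held the run GGGAATTTCCC, in which matches on both strands overlap, starting 71, 97 and 73 bases before the start. That of Cxcl10 held 3 overlapping or separate NF-kappaB matches, and a GAAANNGAA match lay at 213 bases, outside the stretch shown. Cxcl9 had a GAAANNGAA match at 175 bases, and Cxcl12 had neither motif. Over 250 bases, the NF-kappaB consensus was found in 7.25% and GAAANNGAA in 7.13% of 32851 promoters of all genes. Among the matched ligands, 7 and 6 genes held them. Such a match is a description of letters in a window, not a site of binding.

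Whatever set BAT apart, the tissue, its isolation and its sequencing lanes cannot be told apart. The white depots were digested with collagenase at body temperature and the floating cells were collected, whereas BAT was frozen whole. BAT was also run on other sequencing lanes (3 and 4) than the white depots (1 and 2). Adipocyte markers had summed levels of 2752 to 4058 RPKM (reads scaled to row length and library size) in iWAT, 547.1 to 1904 in eWAT and 782 to 995 in BAT. Brown adipocyte markers summed to 2213 to 3015 RPKM in BAT and to at most 16.7 in the white depots. The 7 macrophage marker genes summed to 197 to 368 RPKM in iWAT, 1025 to 1574 in eWAT and 13.0 to 23.3 in BAT. All 7 were higher in eWAT than in iWAT, where 34.5% of all genes tested were. All 7 were also higher in iWAT and in eWAT than in BAT, against 38.1% and 41.1% of all genes. A list of 14 immediate early and tissue dissociation genes, which respond to handling, was added after seeing the data. Its sum was 3002 to 5582 RPKM in iWAT, 2563 to 3896 in eWAT and 59.4 to 479.9 in BAT. The list includes the heat shock genes Hspa1a and Hspa1b. They averaged 656 and 559 RPKM in iWAT, 419 and 355 in eWAT and 35.5 and 30.6 in BAT. The part of these cells or of handling in the results below was not tested. In bulk RNA, fewer cells of a type and less RNA per cell cannot be told apart.

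The summed level of the 39 ligands was 1500 ± 339 RPKM in eWAT adipocytes, 745 ± 200 in iWAT adipocytes and 57.6 ± 8.77 in BAT (SD, n = 6 mice each). The tissues did not overlap: the sums ran from 1238 to 2114, from 551 to 1063 and from 45.8 to 70.2 RPKM. As shares of all reads on gene rows, the ligands took 0.376%, 0.172% and 0.0187% on average. Expression of at least 1 RPKM on average was seen for 20 ligands in eWAT, 19 in iWAT and 14 in BAT. In all, 23 ligands reached this level in at least 1 tissue, and 11 did so in all 3: Cxcl16, Ccl2, Ccl7, Ccl11, Ccl9, Ccl6, Cxcl14, Pf4, Cxcl9, Cxcl12 and Cx3cl1.

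The order of the ligands differed between the tissues. Cxcl1 was first and Cxcl2 second in both white depots, followed by Ccl9. In BAT, Cxcl12 came first with 15.4 RPKM, followed by Cxcl14, Ccl11 and Cxcl9, and Cxcl1 came 17th. The 4 highest ligands of a mouse held 76.8 ± 3.14% of the ligand sum in eWAT, 65.4 ± 3.10% in iWAT and 62.3 ± 1.76% in BAT. Such an order depends on the length of the row. Of the rows, 6 (Cxcl1, Cxcl2, Cxcl3, Ccl3, Ccl4 and Ccl19) span introns as 1 exon. The rows of Ccl6 and Ccl27a have 4 exons, yet are 2.70 and 4.04 times as long as their GENCODE transcripts. Per length of the longest coding transcript of GENCODE vM1, chosen after seeing the data, Cxcl1 stood at 827 RPKM in eWAT, Cxcl2 at 361, Ccl6 at 358 and Ccl9 at 288. Cxcl1 stayed first in both white depots. Ccl6 then moved ahead of Ccl9 in both, and in iWAT also ahead of Cxcl2 (119 against 107.5 RPKM). In BAT, Cxcl12 stayed first and Ccl27a moved from 7th to 2nd place, with 9.96 RPKM. The Ccl27a row overlaps that of Il11ra1, so this level may include reads of Il11ra1.

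**Figure D1:**
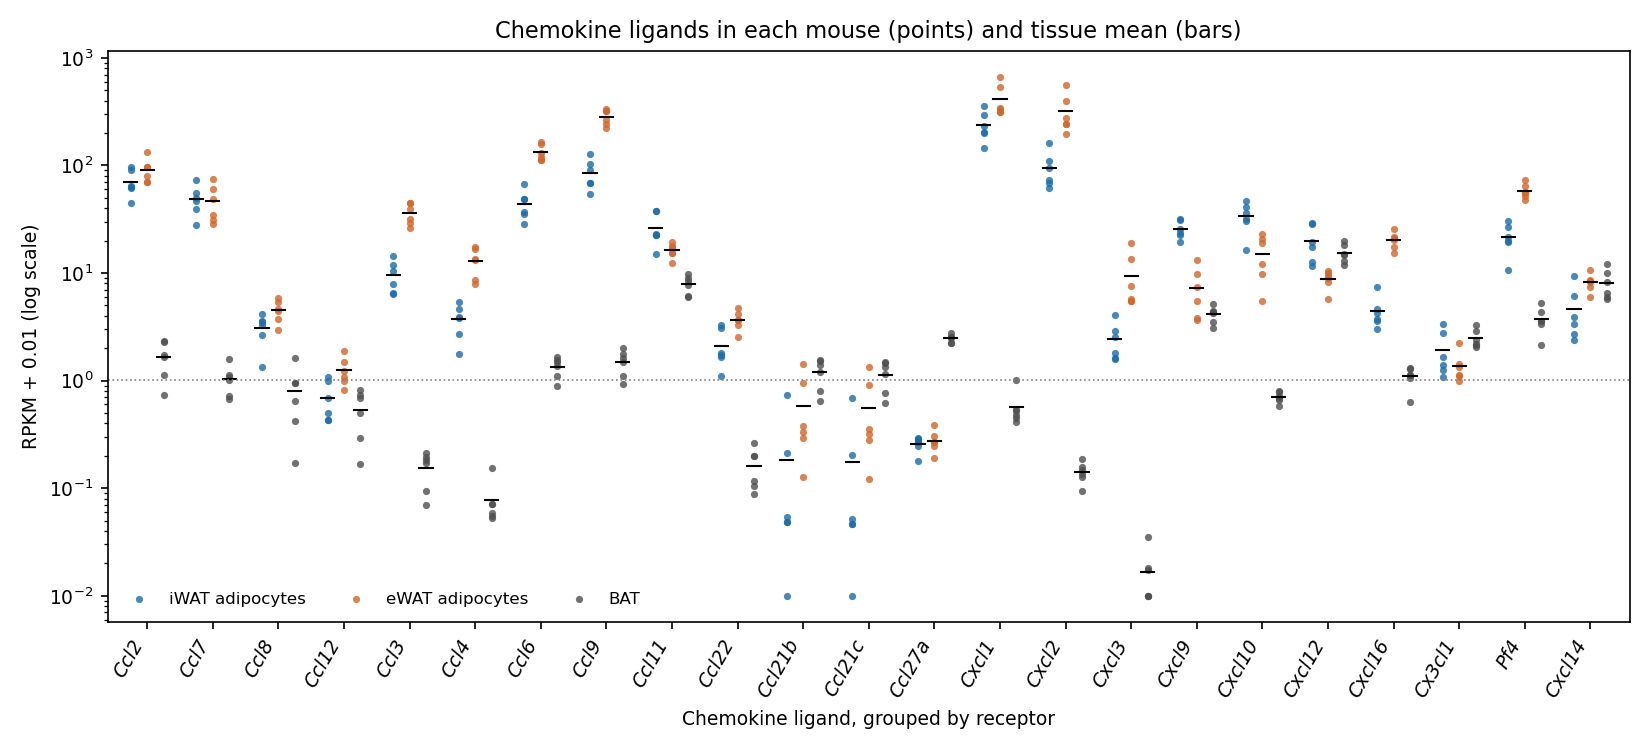
RPKM of the 23 ligands that reached a mean of 1 RPKM in at least 1 tissue, plotted as RPKM + 0.01 on a log scale and grouped by receptor. Each point is a mouse, bars are means of 6 mice, and the dotted line is at 1 RPKM. Cxcl1, Cxcl2 and Cxcl3 of BAT lie far below those of both white depots, whereas the Cxcl12 points run from 5.73 to 28.9 RPKM over all 3 tissues.

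Tissues were compared on read counts with edgeR, in fits across all genes with at least 10 reads on average, and a difference is the first tissue over the second on the log2 scale. Counts were scaled by TMM factors, which averaged 1.35 in iWAT against 0.745 in BAT, and 1.37 in eWAT against 0.731 in BAT. A fold of a white depot over BAT is therefore smaller than the ratio of the RPKM values. A fold of BAT over a white depot is larger than that ratio. Without these factors the median difference of all genes was 0.867 and 0.888, and with them it was 0.01 and -0.02. The 3 comparisons share samples, so their results are not independent.

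Between the white depots, 26 of the 39 ligands passed the filter on low counts. Of these, 13 were higher in eWAT (50%, where 34.5% of all genes tested were) and 5 in iWAT (19.2%, against 34.1%). The mice of the 2 depots did not overlap for 10 ligands, or 38.5%, against 44% of all genes. The median difference was -0.67 for these ligands and 0.00143 for all genes. Between iWAT and BAT, 18 of 27 ligands were higher in iWAT (66.7%, against 38.1% of all genes) and 7 in BAT (25.9%, against 37.2%). Between eWAT and BAT, 16 of 27 were higher in eWAT (59.3%, against 41.1%) and 8 in BAT (29.6%, against 41.4%). The mice did not overlap for 19 and 20 of the 27 ligands, against 65.3% and 68.4% of all genes, shares near those of the ligands. Medians were 1.55 and 2.44. Without TMM the splits were 20 against 4 and 19 against 5. The filter kept some ligands only through the tissue where they are high, so these counts are a description. The rows of Ccl21b and Ccl21c cover one locus and hold the same reads, yet count as 2.

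**Figure D2:**
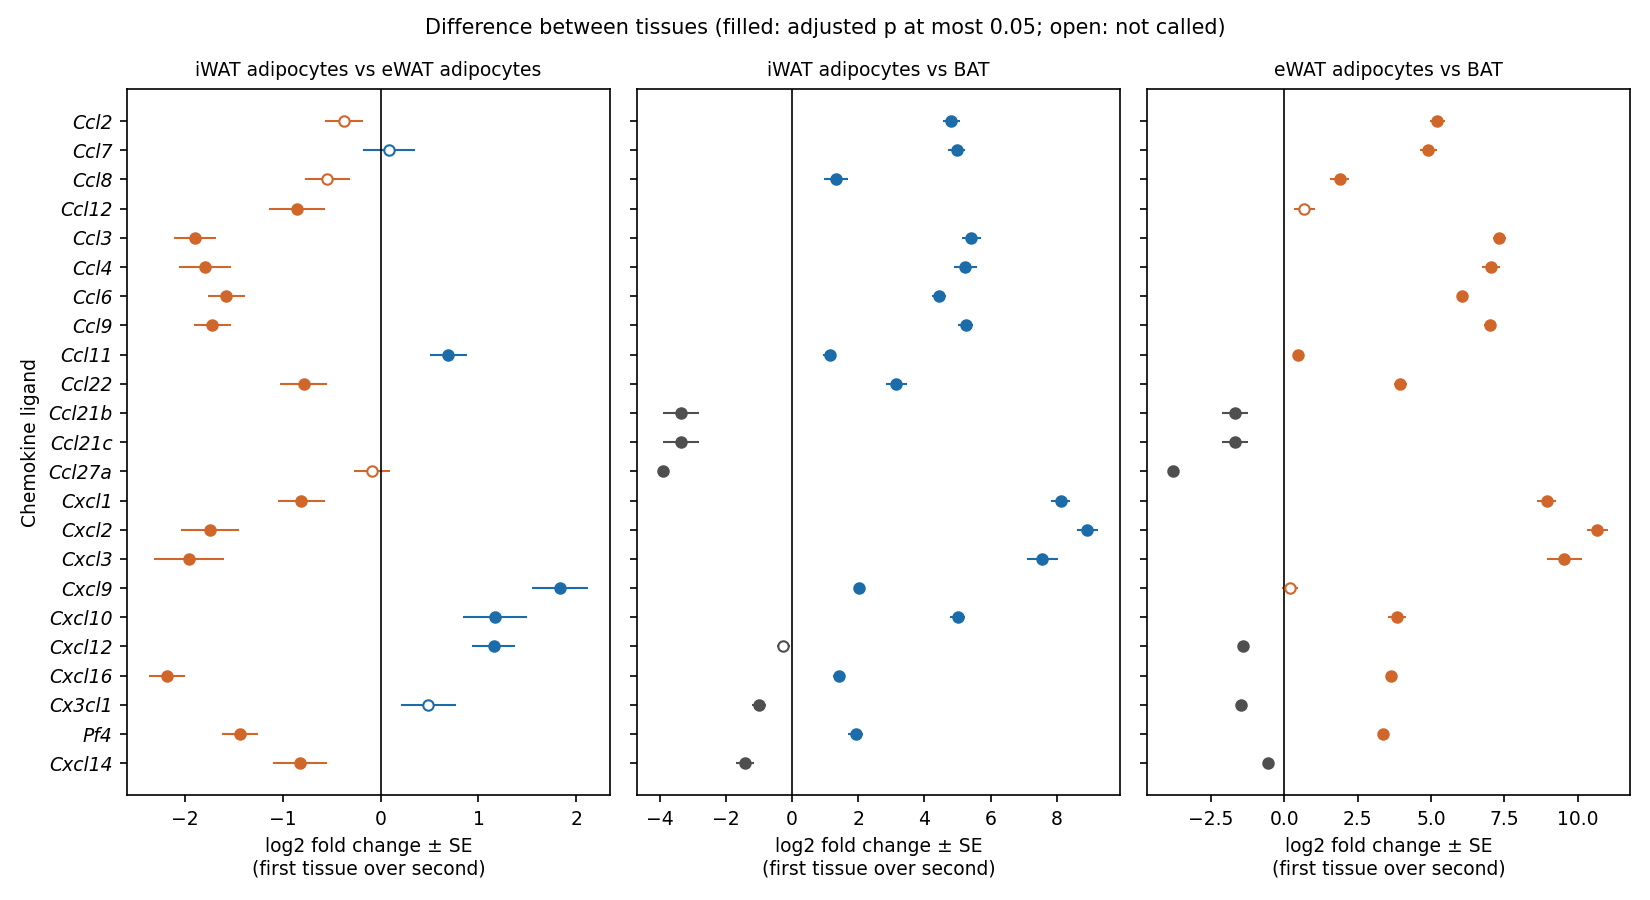
Log2 fold change with its SE (edgeR) of the same ligands in the 3 comparisons, with the first tissue over the second. Filled points have an adjusted p of at most 0.05, and the colour names the tissue with the higher level. The ligands of CXCR2 and Ccl3, Ccl4, Ccl6 and Ccl9 lie to the right in both comparisons with BAT and to the left in iWAT against eWAT.

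The neutrophil-attracting ligands of CXCR2 held the largest differences between the white depots and BAT. Cxcl1 (gene ID 14825, chr5:91320267-91322147) ranged from 313 to 669 RPKM in eWAT (median 341), from 146 to 354 in iWAT (median 219) and from 0.4 to 1.01 in BAT (median 0.487). Every white sample stood far above every BAT sample. The fitted difference was 8.12 ± 0.292 for iWAT against BAT (adjusted p = 2.59e-12) and 8.96 ± 0.323 for eWAT against BAT (adjusted p = 1.53e-12). Between the white depots the mice overlapped, and Cxcl1 was 1.76-fold higher in eWAT (adjusted p = 0.0089).

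Cxcl2 (gene ID 20310) followed the same order, with 196 to 562 RPKM in eWAT (median 260), 62.4 to 162 in iWAT (median 84.3) and 0.0851 to 0.178 in BAT (median 0.131). Its mice did not overlap in any comparison, and eWAT exceeded iWAT by 3.35-fold (adjusted p = 0.000167). The fitted differences from BAT were 8.92 ± 0.317 in iWAT and 10.68 ± 0.354 in eWAT. Cxcl3 was lower, at 5.52 to 18.9 RPKM in eWAT (median 6.64) and 1.59 to 4.07 in iWAT (median 2.16). The Cxcl3 row is 3.47 times as long as its GENCODE transcript and shares 56.7% of its bases with that gene. Per that length Cxcl3 had 32.7 RPKM in eWAT and 8.38 in iWAT. BAT held 5 Cxcl3 reads in 6 mice, at most 3 in any of them. The ratio of reads per scaled library was 210 for iWAT over BAT (95% counting interval 89.9 to 649) and 789 for eWAT over BAT (338 to 2431). Cxcl5 reached 16 reads in a mouse at most, and Cxcl15 had 0 reads in every library. Their receptor Cxcr2 was close to absent, with 0 to 9 reads per mouse, and Cxcr1 with 0 to 6. Of 5 neutrophil markers, Ly6g had 0 RPKM in every library. S100a8, the one tested, averaged 6.06 RPKM in iWAT, 5.72 in eWAT and 0.489 in BAT, and was higher in both white depots than in BAT (3.02 ± 0.264 and 2.95 ± 0.392, adjusted p = 4.47e-08 and 4.6e-06). S100a9, too low to test, ran the other way, with 0.180 RPKM in iWAT, 0.0668 in eWAT and 0.410 in BAT. Elane, also untested, averaged 0.127, 0.0575 and 0.00511 RPKM, and Mpo at most 0.00751 RPKM in any tissue. The list therefore gives no common order of the tissues. The part of neutrophils in the CXCR2 ligands was not tested.

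Ligands of CCR2, which draw monocytes, split into 2 levels. Ccl2 (gene ID 20296, chr11:81849073-81850955), also called monocyte chemoattractant protein, had 70.2 to 134 RPKM in eWAT (median 88.2), 44.6 to 96.4 in iWAT (median 63.7) and 0.719 to 2.35 in BAT (median 1.70). It was 28-fold higher in iWAT than in BAT (adjusted p = 1.31e-10) and 37.0-fold higher in eWAT (adjusted p = 4.15e-11). The white depots overlapped, with a difference of -0.38 ± 0.196 (adjusted p = 0.102), which passed the threshold once mouse 3 of iWAT was left out (adjusted p = 0.0381). Its neighbour Ccl7 gave 27.8 to 73.3 RPKM in iWAT (median 48.3), 28.4 to 74.7 in eWAT (median 41.5) and 0.669 to 1.57 in BAT (median 1.03). The folds over BAT were 31.3 and 30.0, and the white depots differed by 0.08 ± 0.266 (adjusted p = 0.792).

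Ccl8 and Ccl12 lay far lower. Ccl8 had 2.97 to 5.90 RPKM in eWAT (median 4.55), 1.32 to 4.12 in iWAT (median 3.38) and 0.160 to 1.62 in BAT (median 0.785), and it was 2.50-fold and 3.72-fold higher in iWAT and eWAT than in BAT (adjusted p = 0.00366 and 6.36e-05). Between the white depots it missed the threshold (-0.55 ± 0.233, adjusted p = 0.0506), and it passed without mouse 1 or 5 of eWAT or mouse 3 of iWAT (adjusted p = 0.0265 to 0.0453), with DESeq2 (adjusted p = 0.0432), without TMM (adjusted p = 0.0337) and with both limma fits (adjusted p = 0.0494 and 0.0429). Ccl12 reached 0.815 to 1.88 RPKM in eWAT (median 1.15), 0.418 to 1.07 in iWAT (median 0.588) and 0.158 to 0.812 in BAT (median 0.589). It was 1.81-fold higher in eWAT than in iWAT (adjusted p = 0.0162), and against BAT it was tested for eWAT alone (0.68 ± 0.351, adjusted p = 0.0857), although the mice did not overlap. It passed without mouse 16 of BAT (0.85, adjusted p = 0.0403), without TMM (1.59, adjusted p = 0.000288) and with both limma fits (1.19 and 0.56, adjusted p = 0.00176 and 0.000929).

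A group of 5 CC ligands that attract monocytes, macrophages and T cells (Ccl3, Ccl4, Ccl5, Ccl6 and Ccl9) was higher in eWAT than in iWAT and higher in both white depots than in BAT. Of these, the call of Ccl5 between the white depots was unstable, as given below. Ccl9 (gene ID 20308) ran from 222 to 334 RPKM in eWAT (median 290), from 54.5 to 128 in iWAT (median 80.1) and from 0.930 to 2.00 in BAT (median 1.54). No mouse of one tissue reached the range of another. It was 3.30-fold higher in eWAT than in iWAT (adjusted p = 5.01e-06), and 38.0-fold and 128-fold higher than BAT in iWAT and eWAT (adjusted p = 1.76e-11 and 2.06e-13). The adjacent Ccl6 behaved alike, at 112 to 165 RPKM in eWAT (median 125), 28.3 to 67.6 in iWAT (median 42.6) and 0.885 to 1.64 in BAT (median 1.43). Its fold was 2.99 for eWAT over iWAT, 21.7 for iWAT over BAT and 66.1 for eWAT over BAT.

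Ccl3 and Ccl4, the macrophage inflammatory proteins, were lower in level. Ccl3 had 25.9 to 44.9 RPKM in eWAT (median 35.7), 6.39 to 14.3 in iWAT (median 9.21) and 0.0592 to 0.203 in BAT (median 0.166, 3 to 12 reads). The eWAT level was 3.73-fold that of iWAT (adjusted p = 6.4e-06) and 161-fold that of BAT (adjusted p = 3.71e-13), and iWAT was 42.5-fold above BAT. Ccl4 showed 7.85 to 17.5 RPKM in eWAT (median 13.3), 1.75 to 5.37 in iWAT (median 3.86) and 0.0424 to 0.143 in BAT (median 0.0552, 4 to 10 reads). Here the folds of eWAT were 3.47 over iWAT and 133 over BAT, and that of iWAT over BAT was 37.7. Ccl5 stayed under 1 RPKM on average, with 0.814 RPKM in eWAT, 0.444 in iWAT and 0.0995 in BAT. Its row is 6.81 times as long as its GENCODE transcript, and per that length it had 5.54, 3.02 and 0.677 RPKM. Its call between the white depots (-0.86 ± 0.354, adjusted p = 0.0449) was lost with sequencing lane in the fit (-0.50, adjusted p = 0.29) and without any of mice 2, 3, 4 or 5 of eWAT or 1, 2, 3, 4 or 16 of iWAT (adjusted p = 0.0516 to 0.106). The call was also lost without the filter on low counts (adjusted p = 0.0525) and with both limma fits (adjusted p = 0.0973 and 0.0671).

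Pf4, a CXC ligand named for platelets, had 48.1 to 73.4 RPKM in eWAT (median 56.2), 10.7 to 30.3 in iWAT (median 20.9) and 2.15 to 5.24 in BAT (median 3.55). The 3 tissues did not overlap. It was 2.71-fold higher in eWAT than in iWAT (adjusted p = 2.14e-05), 3.78-fold higher in iWAT than in BAT and 10.4-fold higher in eWAT than in BAT. Of the 5 genes of a platelet and megakaryocyte list, 3 were tested and none was higher in a white depot than in BAT. Gp1ba was 1.73-fold higher in eWAT than in iWAT, without overlap (adjusted p = 0.000751). The sum of the 5 was 0.586 to 1.13 RPKM in iWAT, 0.813 to 1.40 in eWAT and 0.979 to 1.81 in BAT. Cxcl16, a membrane-bound ligand of CXCR6 that can be shed by Adam10, had 15.4 to 25.4 RPKM in eWAT (median 20.7), 3.01 to 7.33 in iWAT (median 4.03) and 0.621 to 1.31 in BAT (median 1.12). This was the largest fold between the white depots among the ligands tested, 4.55 in favour of eWAT (-2.19 ± 0.184, adjusted p = 6.48e-07). Against BAT the folds were 2.67 in iWAT and 12.4 in eWAT. The Cxcl16 row overlaps that of Zmynd15.

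Ccl22, a ligand of CCR4 on T cells, had 2.53 to 4.75 RPKM in eWAT (median 3.65), 1.10 to 3.31 in iWAT (median 1.76) and 0.0782 to 0.255 in BAT (median 0.147). The depots overlapped, with eWAT 1.73-fold higher (adjusted p = 0.01), and both were clear of BAT (8.83-fold and 15.5-fold). Its partner Ccl17 had at most 6 reads in a mouse.

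The ligands of CXCR3, which interferon-gamma induces and which draw T cells, were ordered the other way between the white depots. Cxcl9 and Cxcl10 were higher in iWAT, and so was the row of Cxcl11, on few reads. Cxcl9 (gene ID 17329) had 19.3 to 31.8 RPKM in iWAT (median 24.6), 3.69 to 13.3 in eWAT (median 6.41) and 3.05 to 5.20 in BAT (median 4.27). The iWAT mice lay above all others, 3.56-fold over eWAT (adjusted p = 9.77e-05) and 4.05-fold over BAT (adjusted p = 4.68e-09). Between eWAT and BAT the mice overlapped (0.21 ± 0.277, adjusted p = 0.497), and the sign turned with the mouse number as a block (-0.05) and without mouse 4 of eWAT (-0.05). Without TMM, Cxcl9 was higher in eWAT than in BAT (1.13, adjusted p = 0.000615), as it was with limma on log2(RPKM + 0.1) and log2(RPKM + 1) (0.66 and 0.57, adjusted p = 0.0364 and 0.0363). Cxcl10 (gene ID 15945) had 16.3 to 47.0 RPKM in iWAT (median 33.7), 5.49 to 23.0 in eWAT (median 15.5) and 0.574 to 0.786 in BAT (median 0.694). It was 2.25-fold higher in iWAT than in eWAT (adjusted p = 0.00593), and 32.1-fold and 14.4-fold higher than BAT in iWAT and eWAT. The rows of Cxcl10 and Cxcl11 overlap that of Art3.

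The third, Cxcl11, stayed at 0.146, 0.0636 and 0.154 RPKM on average in iWAT, eWAT and BAT. Its call between iWAT and eWAT (1.21 ± 0.323, adjusted p = 0.0047) rested on 11 to 21 and 3 to 13 reads per mouse. No coding transcript of Cxcl11 was found in GENCODE vM1. The difference of iWAT from BAT (-0.69 ± 0.213, adjusted p = 0.00851) turned sign without TMM (0.15) and was lost with the mouse number as a block (adjusted p = 0.144). It was also lost with both limma fits (adjusted p = 0.794 and 0.806). Interferon-gamma itself was too low to test. It averaged 0.079 RPKM in iWAT, on 0 to 5 reads per mouse. In eWAT and BAT it averaged 0.00412 and 0.00602 RPKM, on 0 to 1 reads per mouse. T cell markers summed to 0.158 to 0.641 RPKM in iWAT and 0.153 to 0.312 in eWAT. In eWAT, 4 of these 5 markers had at most 3 reads in every mouse. The Cxcr3 receptor averaged 0.119 RPKM in iWAT and 0.616 in eWAT, and was 5.07-fold higher in eWAT (adjusted p = 1.93e-05), unlike its ligands. Its row shares 18.4% of its bases with the GENCODE gene Cxcr3.

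Cxcl12 (gene ID 20315, chr6:117118553-117131386), a ligand of CXCR4 that retains cells in tissue, was the highest ligand of BAT. It had 11.9 to 19.8 RPKM in BAT (median 14.9), 11.6 to 28.9 in iWAT (median 18.4) and 5.73 to 10.5 in eWAT (median 9.22). The eWAT mice lay below all others. The level of iWAT was 2.23-fold that of eWAT (adjusted p = 0.000423) and that of BAT 2.63-fold (adjusted p = 1.7e-07). Between iWAT and BAT, which overlapped, the fitted difference was -0.27 ± 0.192 (adjusted p = 0.219), and it turned to 0.60 without TMM (adjusted p = 0.0165). Endothelial markers, which are markers of one cell type known to make Cxcl12, summed to 99.5 to 280 RPKM in iWAT, 33.4 to 71.2 in eWAT and 68.7 to 99.6 in BAT. Other lists had other orders. Progenitor and fibroblast markers summed to 463 to 626 RPKM in iWAT, 91.2 to 218 in eWAT and 26.9 to 43.2 in BAT. Pericyte and smooth muscle markers summed to 77.7 to 221, 21.5 to 53.1 and 92.0 to 131 RPKM. The part of any of these cells in the Cxcl12 level was not tested.

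Ccl11, or eotaxin, which draws eosinophils through CCR3, fell within a narrow span. It had 14.9 to 38.1 RPKM in iWAT (median 22.7), 12.3 to 19.6 in eWAT (median 16.4) and 6.04 to 9.83 in BAT (median 8.09). It was 1.62-fold higher in iWAT than in eWAT (adjusted p = 0.00588) and 2.19-fold higher than in BAT (adjusted p = 5.5e-05). Of eWAT and BAT, the edgeR difference was 0.47 ± 0.130 (adjusted p = 0.00374). With the mouse number as a block, in the 4 mice that gave both tissues, it was 0.25 (adjusted p = 0.0995), and without the block in the same mice 0.24 (adjusted p = 0.132). Cxcl14, known from epithelia and brown fat, had 5.70 to 12.2 RPKM in BAT (median 7.39), 5.96 to 10.6 in eWAT (median 8.31) and 2.40 to 9.40 in iWAT (median 3.65). It was 1.77-fold higher in eWAT than in iWAT (adjusted p = 0.0167). The differences from BAT, -1.42 ± 0.277 in iWAT and -0.57 ± 0.166 in eWAT, passed the threshold with TMM but not without it, where they were -0.56 and 0.33.

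A few ligands were highest in BAT. Ccl27a (gene ID 20301, chr4:41716340-41721120), known as an attractant of skin-homing T cells through CCR10, had 2.21 to 2.79 RPKM in BAT (median 2.50), 0.171 to 0.284 in iWAT (median 0.265) and 0.180 to 0.381 in eWAT (median 0.258). The BAT mice stood above all white samples, with 15.0-fold and 13.8-fold differences (adjusted p = 4.33e-13 and 1.63e-12). Its row overlaps that of Il11ra1, and reads of this pair cannot be told apart. The white depots differed by -0.09 ± 0.183 (adjusted p = 0.671). The rows of Ccl21b and Ccl21c, which guide cells to lymph nodes through CCR7, held the same reads. The Ccl21b row had 0.640 to 1.56 RPKM in BAT (median 1.29), 0.117 to 1.41 in eWAT (median 0.344) and 0 to 0.718 in iWAT (median 0.0414). That row shares 0% of its bases with the GENCODE gene Ccl21b, whereas the Ccl21c row shares 99.8% with the gene Ccl21c. The locus was 10.2-fold lower in iWAT and 3.21-fold lower in eWAT (adjusted p = 3.96e-05 and 0.0021), and near-identical copies make its counts uncertain. The eWAT call was lost without TMM (-0.80, adjusted p = 0.0948). Ccl25, under 1 RPKM everywhere, averaged 0.512 RPKM in BAT, 0.171 in iWAT and 0.186 in eWAT. The BAT mice lay above all white samples, whereas the white depots overlapped. The Ccl25 row overlaps that of Elavl1. That row is 6.7 times as long as the GENCODE transcript, and per that length Ccl25 had 3.43, 1.15 and 1.25 RPKM.

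Cx3cl1, or fractalkine, a membrane-bound ligand of the monocyte receptor CX3CR1, had 2.05 to 3.30 RPKM in BAT (median 2.28), 1.06 to 3.33 in iWAT (median 1.52) and 0.989 to 2.21 in eWAT (median 1.21). All tissues overlapped. It was lower than in BAT in eWAT (-1.46 ± 0.174, adjusted p = 1.35e-06) and iWAT (-1.0 ± 0.225, adjusted p = 0.000834), the latter not without TMM (-0.13, adjusted p = 0.63) or with both limma fits (-0.46 and -0.304, adjusted p = 0.0921 and 0.111). The white depots differed by 0.49 ± 0.280 (adjusted p = 0.136), which passed the threshold without mouse 4 of eWAT (0.68, adjusted p = 0.0363).

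The 16 ligands under 1 RPKM in every tissue include 9 with at most 3 reads in each of the 18 libraries: Ccl1, Ccl20, Xcl1, Ccl27b, Ccl19, Ccl21a, Cxcl15, Ccl26 and Cxcl17. At this depth, 24655056 to 42518483 reads per library, they were not detectable above that level. The rows of Ccl19 and Ccl27b share 0% of their bases with the GENCODE genes of those names. Their low counts may therefore not describe those genes. The row of Ccl21a overlaps that of Gm1987. The other 7 of the 16 were Ccl5, Ccl17, Ccl24, Ccl25, Cxcl5, Cxcl11 and Cxcl13. Ccl24 averaged 0.396 to 0.573 RPKM and Cxcl13 0.116 to 0.492.

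Receptors were set beside the ligands, and 9 of 22 listed receptors reached 1 RPKM in at least 1 tissue. Of the 15 receptors tested between the white depots, 7 were higher in eWAT and 5 in iWAT, where 34.5% and 34.1% of all genes were. Of 14 tested between iWAT and BAT, 7 were higher in iWAT and 4 in BAT (all genes 38.1% and 37.2%). Of 15 tested between eWAT and BAT, 8 were higher in eWAT and 4 in BAT (all genes 41.1% and 41.4%). Ccr1, a receptor of several of the CC ligands above, had the same order of tissues. It had 6.90 to 13.9 RPKM in eWAT (median 9.84), 1.5 to 4.16 in iWAT (median 2.40) and 0 to 0.101 in BAT (median 0.056). Ccr2, the monocyte receptor of Ccl2, averaged 4.76 RPKM in eWAT, 1.95 in iWAT and 0.658 in BAT, and the folds of eWAT and iWAT over BAT were 4.83 and 1.95, where those of Ccl2 were 37.0 and 28.

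Ccr3, the eosinophil receptor of Ccl11, averaged 2.41 RPKM in eWAT and 0.419 in iWAT, and BAT held 1 read in all. It was 5.70-fold higher in eWAT than in iWAT (adjusted p = 1.77e-06), whereas Ccl11 was higher in iWAT. Cxcr4, the receptor of Cxcl12, was highest in eWAT, where its ligand was lowest. It had 63.5 to 112 RPKM in eWAT (median 80.7), 20.4 to 41.4 in iWAT (median 21.0) and 0.767 to 1.73 in BAT (median 1.01), with no overlap and with 3.12-fold, 16-fold and 50.9-fold differences (eWAT over iWAT, iWAT over BAT, eWAT over BAT). Cxcr7, the atypical receptor that removes Cxcl12, had the opposite order, with 24.3 RPKM in BAT, 14.4 in iWAT and 8.55 in eWAT. BAT exceeded eWAT by 4.27-fold (adjusted p = 5.72e-07) and iWAT by 2.60-fold (adjusted p = 1.24e-05). The white depots overlapped (0.74 ± 0.307, adjusted p = 0.0456), and this call was lost without TMM (adjusted p = 0.0687) and without mouse 1, 3, 4 or 16 of eWAT or mouse 1, 2, 4 or 5 of iWAT (adjusted p = 0.0532 to 0.104). Both limma fits lost it too (adjusted p = 0.0541 and 0.0537).

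Ccr10, the receptor of Ccl27a, was highest in BAT, as its ligand was. It averaged 2.86 RPKM there, 0.353 in iWAT and 0.104 in eWAT, 12.3-fold and 40.9-fold lower in the white depots (adjusted p = 1.45e-10 and 6.6e-12), and its row overlaps Cntnap1. Among the other atypical receptors, Ccrl2, which presents the attractant chemerin, averaged 65.7 RPKM in eWAT, 18.4 in iWAT and 0.804 in BAT. It was 3.56-fold higher in eWAT than in iWAT (adjusted p = 3.63e-06). Ccrl1, a scavenger of Ccl19, Ccl21 and Ccl25, averaged 1.73 RPKM in BAT, 0.910 in iWAT and 0.510 in eWAT. Darc, a decoy receptor of red blood cells and venules, varied widely between mice, from 0.860 to 7.12 RPKM in eWAT and 0.495 to 6.86 in iWAT (adjusted p = 0.712).

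**Figure D3:**
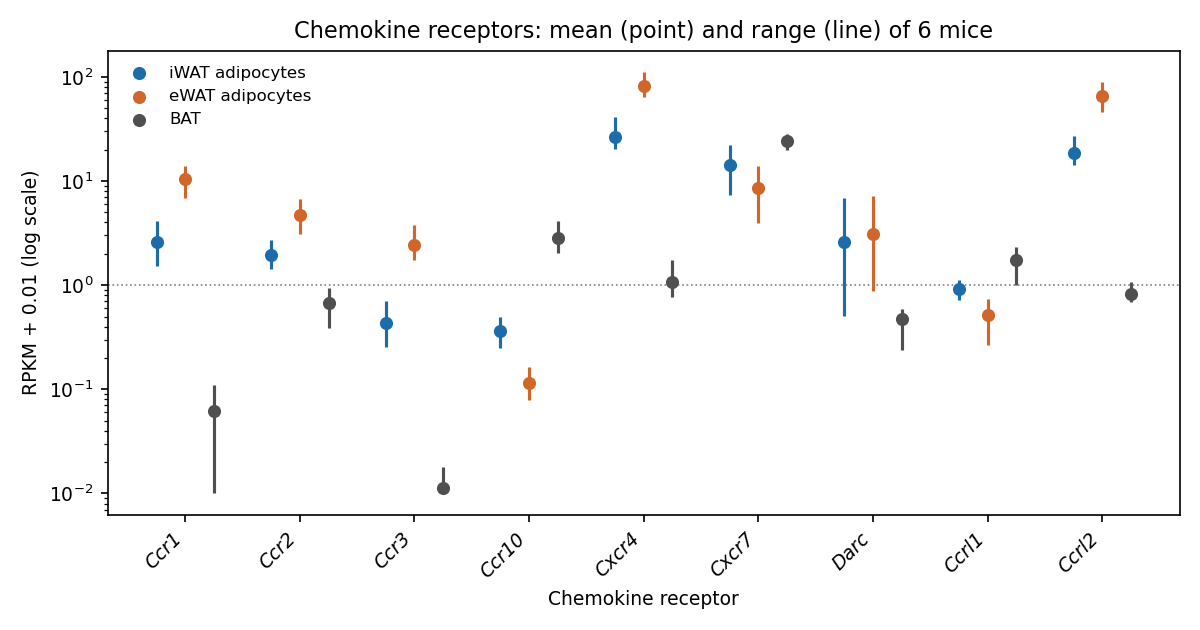
RPKM + 0.01 on a log scale of the 9 listed chemokine receptors with a mean of at least 1 RPKM in some tissue. Points are means and lines run from the lowest to the highest of 6 mice, and the dotted line is at 1 RPKM. Cxcr4 and Ccrl2 are the highest in both white depots and Cxcr7 in BAT.

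The list of proteases that shed or trim chemokines had 6 measured genes, all tested. None was higher in iWAT and 3 in eWAT, where 34.1% and 34.5% of all genes were. Against BAT, 4 were higher in iWAT and 5 in eWAT, where 38.1% and 41.1% of all genes were. Dpp4, which trims the N terminus of chemokines, went the other way, with 0.124 RPKM in BAT, 0.0838 in iWAT and 0.0988 in eWAT, and was higher in BAT in both comparisons (-1.18 and -0.92, adjusted p = 0.000562 and 0.000599). Mmp12, the macrophage elastase, had 157 to 647 RPKM in eWAT (median 402), 31.6 to 45.3 in iWAT (median 36.2) and 0.394 to 0.911 in BAT (median 0.723). Adam10, which sheds Cxcl16 and Cx3cl1, averaged 24.0, 15.5 and 4.64 RPKM (adjusted p = 6.36e-05 between the white depots). Of 9 cytokines that induce chemokines, 3 were tested between the white depots, and 2 of them were higher in eWAT, where 34.5% of all genes were. Against BAT, 3 of 4 tested were higher in iWAT and 3 of 3 in eWAT (all genes 38.1% and 41.1%). Il6 averaged 11.4 RPKM in iWAT, 11.2 in eWAT and 0.00895 in BAT, with no difference called between the white depots (adjusted p = 0.975). Tnf had 70.7 to 234 RPKM in eWAT (median 93.9), 29.0 to 74.1 in iWAT (median 39.2) and 0.0516 to 0.237 in BAT (median 0.102). Il1b had 19.6 to 51.5 RPKM in eWAT (median 24.4), 2.89 to 9.04 in iWAT (median 3.82) and 0.045 to 0.172 in BAT (median 0.0938).

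Mice of a tissue varied as well. Among the ligands expressed in a tissue, the median coefficient of variation over 6 mice was 33.0% in iWAT, 25.0% in eWAT and 25.1% in BAT. Mouse 3 had the highest level of 12 of the 19 ligands expressed in iWAT, those of Ccl2, Ccl7, Ccl8, Ccl9, Ccl6, Ccl3, Pf4, Cxcl3, Cxcl1, Cxcl2, Cxcl10 and Ccl22. It also had the highest macrophage sum of the depot, 368 RPKM. Mouse 4 had the lowest level of 10 of them and the lowest ligand sum, with the 3rd highest macrophage sum, 294 RPKM. In eWAT, mouse 5 was highest for Ccl2, Ccl7, Cxcl1, Cxcl2, Cxcl3 and Ccl22 and in the ligand sum, and its macrophage sum, 1160 RPKM, was the 4th of 6. Mouse 3, which had the highest macrophage sum (1574 RPKM), was highest for Cxcl16, Ccl12, Ccl6, Ccl3, Cxcl14 and Pf4. Within sequencing lanes, the log2 ratio of mean RPKM of iWAT over eWAT had the same sign in lane 1 (2 and 4 mice) as in lane 2 (4 and 2 mice) for all 16 called ligands of at least 1 RPKM, with values of -2.30 and -1.89 for Cxcl16 and 1.94 and 1.85 for Cxcl9.

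**Figure D4:**
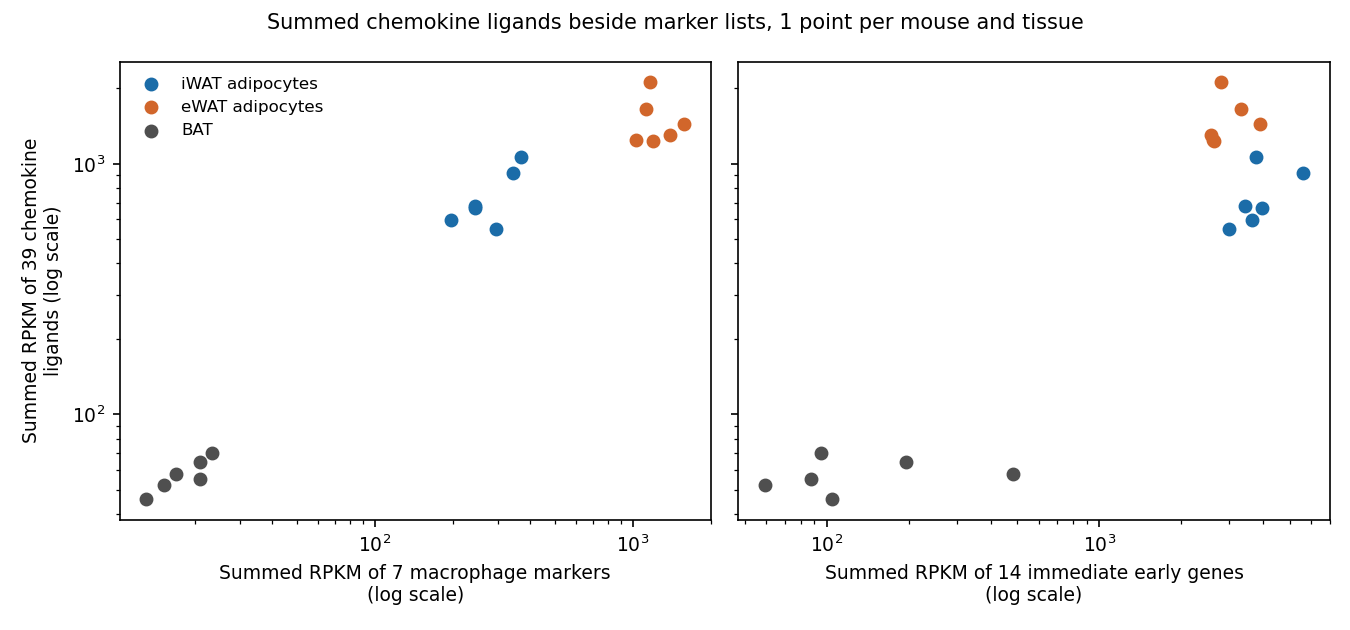
Summed RPKM of the 39 ligands in each mouse and tissue (both axes log) against the summed RPKM of 7 macrophage markers (left) and of 14 immediate early and tissue dissociation genes (right). The eWAT samples hold the highest macrophage sums, 1025 to 1574 RPKM, with the highest ligand sums, and BAT holds the lowest of both. The sums of the 14 genes in both white depots share a range far above BAT.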

How the data were processed

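RNA of 18 samples was sequenced by the authors on an Illumina HiSeq instrument from unstranded libraries. Per the submitters' processing notes, cutadapt 1.16 and HISAT2 2.1.0 were used, on mm9 (NCBIM37); the counting program is not given in the sources used here. The deposited files hold read counts per gene row, not normalized, and RPKM values that the authors made from them. Without strand, reads of overlapping rows cannot be told apart.

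Ligands with several rows (2 of 39) were taken by the row with the highest mean RPKM. Groups came from the sample titles, 6 mice per tissue. Counts were tested with edgeR 4.0.16 in R 4.3.3 (TMM, quasi-likelihood, two-sided), for each pair of tissues on its own 12 samples, over genes that averaged 10 counts or more, with Benjamini-Hochberg adjustment over all genes and a threshold of 0.05. The SE comes from the quasi-likelihood F. Ligands of at least 1 RPKM on average in some tissue were described one by one, with the receptors at that level, and the 2 highest genes of the protease and cytokine lists. The members and lists were chosen with earlier results of these data known. The steps were tested on simulated data. One receptor is not reported here and was left out of the receptor counts.

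Reads on gene rows were 26768529 to 30166441 per iWAT library, 24655056 to 37438994 per eWAT library and 27402247 to 42518483 per BAT library, and intervals cover counting error only. No pair of replicates looked like one library deposited more than once: the smallest chi-square of their counts, divided by its degrees of freedom, was 15.7. The number in a title was taken to mark the animal, which no label states, with 6 pairs between the white depots and 4 with BAT, and same-numbered samples correlated by -0.269 to 0.511, -0.151 to 0.112 and -0.0508 to 0.077 in the 3 comparisons, above 0.1 in 1, 1 and 0 of the pairs. Alternatives were a mouse block, DESeq2 1.42.0, no TMM, no filter, limma 3.58.1 on log2(RPKM + 0.1) and log2(RPKM + 1), summed rows, a fit of all samples, lane as a covariate, a fold minimum, other expression cutoffs, and each mouse left out. The same mice without the block, and lengths from GENCODE, were added after seeing the data. RefSeq promoters were searched on both strands over 250 bases before the start.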

Additional observations from a re-analysis of the deposited data

Results flagged for a closer look

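In 6 of 68 groups of 6 mice, 1 mouse stood apart from the rest by Dixon's test, which flags about 1 in 20 groups by chance (3.4 of 68). Cxcl1 in BAT was 1.01 RPKM in mouse 18 (65 reads), with 0.4 to 0.532 in the other mice. Cxcl16 in BAT was 0.621 RPKM in mouse 16 (43 reads), with 1.06 to 1.31 in the others. Ccl4 in BAT was 0.143 RPKM in mouse 5, on only 10 reads, with 0.0424 to 0.0616 in the others. Cx3cl1 in eWAT was 2.21 RPKM in mouse 4 (218 reads), with 0.989 to 1.43 in the others, and the difference between the white depots passed the threshold without that mouse. The rows of Ccl21b and Ccl21c, which hold the same reads, were at 0.717 and 0.685 RPKM in mouse 5 of iWAT (18 reads), with 0 to 0.203 and 0 to 0.194 in the others.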

How the results depend on the processing

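The count of ligands past the threshold stayed within 1.5 times its value in all 3 comparisons under every alternative run. The farthest was a log2 fold minimum of 1, under which 12 of the 18 ligands called between the white depots were left, without Ccl11, Ccl12, Ccl5, Cxcl14, Cxcl1 and Ccl22. Leaving out 1 mouse in turn gave 17 to 19 ligands for iWAT against eWAT, 24 to 25 for iWAT against BAT and 24 to 25 for eWAT against BAT. The mouse number as a block gave 18, 24 and 23 ligands (iWAT against eWAT, iWAT against BAT, eWAT against BAT), where the fit without it in all mice gave 18, 25 and 24. The block lost Cxcl11 (iWAT against BAT) and Ccl11 (eWAT against BAT), turned the uncalled Cxcl9 (eWAT against BAT) to -0.0485, and changed no other call of a ligand. For the same mice without the block, Cxcl11 and Ccl11 were lost too. A cutoff of 0.1 RPKM gave 29 expressed ligands in iWAT and 26 in BAT, and asking for 1 RPKM in every mouse left 7 in BAT.

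The log2 differences that turned sign were these. For iWAT against BAT, no TMM gave 0.149 for Cxcl11, 0.758 for Ccl24 and 0.602 for Cxcl12. Without the filter, Ccl24 was 0.0204. With limma on log2(RPKM + 0.1) and log2(RPKM + 1), Ccl24 was 0.384 and 0.161 and Cxcl12 0.285 and 0.274. For eWAT against BAT, no TMM gave 0.328 for Cxcl14 and 0.631 for Ccl24, and limma gave 0.049 and 0.041 for Cxcl14 and 0.28 and 0.103 for Ccl24. RPKM carries no TMM factor, so these fits share the shift of all genes toward the white depots. With 1 mouse left out, the ranges that crossed 0 were, for iWAT against eWAT, -0.0691 to 0.276 for Ccl7, -0.179 to 0.0297 for Ccl27a, -0.0465 to 0.573 for Cxcl13, -0.0513 to 0.365 for Ccl24 and -0.822 to 0.176 for Darc. Those against BAT were -0.351 to 0.136 for Ccl24 in iWAT and -0.0464 to 0.35 for Cxcl9 in eWAT. None of these 7 was past the threshold with all mice, and the cause was not tested. Ligands at or under 3 reads per library are limited by depth, and Ccl19 and Ccl27b also by the placement of their rows.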
